A study of Canis lupus familiaris with 22 samples.

Results

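The proteasome subunit genes carry the names PSMA to PSMG followed by a number. They were taken as all transcripts whose gene name on the array begins that way, which gave 43 of the 34382 gene names, read by 66 probes. Of these, 41 genes had at least 1 probe whose Cy5 signal was well above background on 7 or more of the 22 arrays, and their probes were averaged per gene. The blood of 8 healthy dogs (ctrl), of 7 dogs with canine atopic dermatitis (cAD patients) before allergen-specific immunotherapy (ASIT; 0) and, again, of these 7 cAD patients 6 months into ASIT (6 months) was hybridized, 1 array per sample, and the comparisons were 0 vs. ctrl, 6 months vs. ctrl and 0 vs. 6 months. The labels describe venous whole blood collected into stabilizing tubes, while the methods name peripheral blood nuclear cells. The dogs were privately owned animals of several breeds and both sexes and all 7 cAD patients received ASIT, and ages are not in the labels. The RNA of each dog was labeled with Cy5 and a pool of blood RNA from other healthy dogs with Cy3 on every array, so each value below is a log2 ratio of a dog to this pool and says nothing of the level of a gene against another gene.

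The proteasome is the protease that degrades ubiquitin-tagged proteins. Its 20S core is a barrel of alpha subunits (PSMA) around rings of beta subunits (PSMB), of which PSMB5, PSMB6 and PSMB7 cut proteins, and its 19S cap holds a ring of ATPases (PSMC) and non-ATPase subunits (PSMD) that bind and unfold the substrate. Interferon gamma induces PSMB8, PSMB9 and PSMB10, which take the places of PSMB5, PSMB6 and PSMB7 in the immunoproteasome, and the activator subunits PSME1 and PSME2, and this form is abundant in lymphocytes, monocytes and other blood leukocytes. PSMG2, PSMG3, PSMG4, PSMD5, PSMD9 and PSMD10 are chaperones that put the core or the ATPase ring together and leave it afterwards. Red cell precursors use the proteasome while they clear their organelles and proteins.

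The probes that read the exchangeable catalytic subunits are shown first, since the immunoproteasome results rest on single probes for most of them. The files give positions on canFam3.1. PSMB8 was read at chr12:2419692-2419751 (minus strand) and its constitutive counterpart PSMB5 at chr8:3348724-3348783 (minus strand). PSMB10 was read at chr5:81563277-81563457 (plus strand) and PSMB7 at chr9:58562701-58589700 (plus strand), both by probes that span more genome than their 60 bases. PSMB9, the neighbor of PSMB8, was read at chr12:2437889-2437948 (plus strand). Capitals mark the 48 bases that a second PSMB9 probe shares, so that these 2 probes are not independent readings.
PSMB8: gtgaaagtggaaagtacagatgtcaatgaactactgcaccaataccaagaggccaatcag
PSMB5: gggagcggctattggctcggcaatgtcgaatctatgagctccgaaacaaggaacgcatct
PSMB10: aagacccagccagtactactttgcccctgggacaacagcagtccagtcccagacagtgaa
PSMB7: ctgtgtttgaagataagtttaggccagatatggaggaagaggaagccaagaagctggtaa
PSMB9: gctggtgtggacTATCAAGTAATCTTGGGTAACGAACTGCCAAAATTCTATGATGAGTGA

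Further results turn on a 19S subunit and an activator subunit whose ratios moved with markers of red cell precursors. PSMD8 was read by 1 probe at chr1:114620849-114622170 (minus strand). PSME1 was read at chr8:4133586-4133819 (plus strand) and by a second probe that does not overlap it.
PSMD8: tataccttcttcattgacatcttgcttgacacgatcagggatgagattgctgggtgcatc
PSME1: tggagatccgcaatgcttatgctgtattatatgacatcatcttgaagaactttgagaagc

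The 2 genes that did not pass the filter are tissue forms. PSMA8, the alpha subunit of the testis proteasome, was read at chr7:62436191-62436362 (minus strand). PSMB11, the catalytic subunit of the thymus proteasome, was read at chr8:3355987-3356046 (plus strand). They are shown because no ratio is given for them.
PSMA8: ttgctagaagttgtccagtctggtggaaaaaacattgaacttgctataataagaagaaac
PSMB11: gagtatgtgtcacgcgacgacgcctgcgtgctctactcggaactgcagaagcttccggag

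Both tissue forms were near the background of the scanner in blood. The PSMA8 probe had Cy5 well above background on 3 of the 8 ctrl arrays and on none of the 14 arrays of cAD patients, and its Cy3 signal, that of the pool, was well above background on 2 of 22. The PSMB11 probe had Cy5 well above background on 5 ctrl arrays, 1 array before ASIT and no array after ASIT, and Cy3 on 1 of 22. Over all probes, the share with Cy5 well above background was 83.7% to 92.3% on ctrl arrays, 53.3% to 87.5% before ASIT and 57.2% to 81.6% after ASIT. The part of these shares in the counts of both probes was not tested. The other members were bright. In 40 of the 41 genes at least 1 probe was well above background in Cy5 on all 22 arrays, and no member probe was saturated. PSMD5 was the exception, with its only probe above background on 8 ctrl arrays, 5 before ASIT and 3 after ASIT.

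Markers of the labelled tissue were present. Of the lists of blood cell markers, 9 of 10 neutrophil genes, 7 of 7 monocyte genes and 8 of 9 T cell genes were measured, all of them above background on all 22 arrays, as were 6 of 8 erythroid genes (among them ALAS2, AHSP, SLC4A1, EPB42 and CA1). The ctrl arrays lay on slides of their own and were scanned apart from those of the cAD patients, so slide, scan and group cannot be told apart in both comparisons with ctrl. In bulk blood, fewer cells of a type and less RNA per cell cannot be told apart.

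Most proteasome genes varied little from dog to dog. The standard deviation (SD) over the 22 arrays had a median of 0.26 on the log2 scale among the 41 members, against 0.46 over all 29937 genes tested and 0.36 over the 15105 genes whose probes were above background in both channels on every array, a group that held 40 of the members. It was lowest for the ATPase PSMC5, at 0.18. Only 12 members exceeded the median of those bright genes. The 5 members with the widest spread were PSMD9 (SD 0.88), PSMD8 (0.76), PSMG2 (0.71), PSMD4 (0.68) and PSMD10 (0.67), followed by PSMD5 (0.55). These comprise 3 assembly chaperones of the core or the ATPase ring, the ubiquitin receptor PSMD4, and PSMD8, another subunit of the 19S cap.

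**Figure D1:**
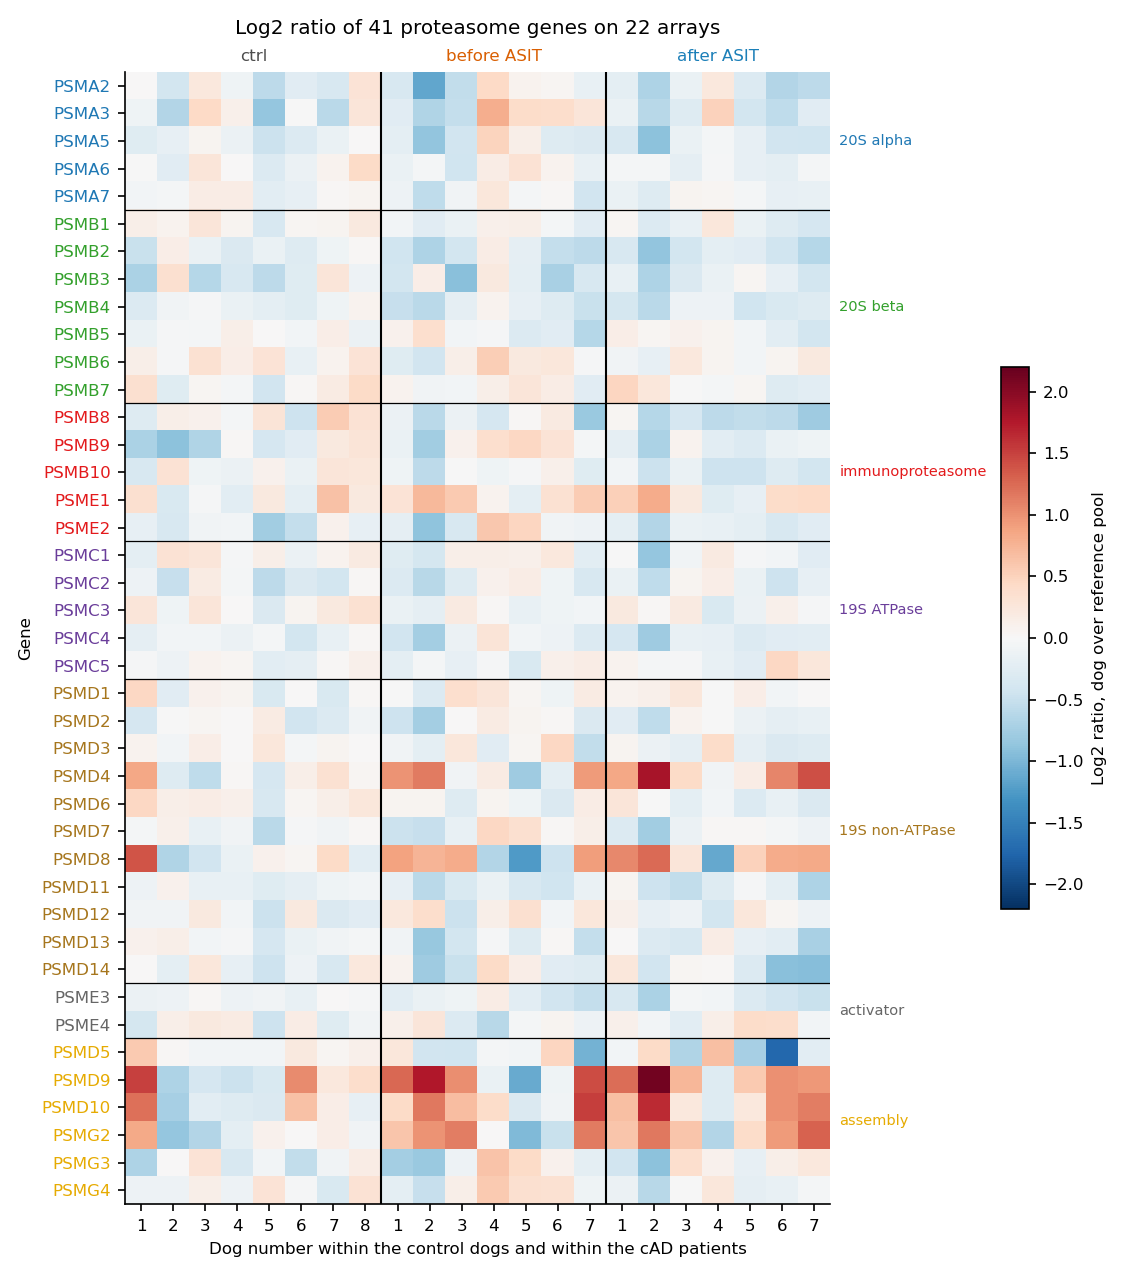
Log2 ratio of dog over reference pool for each of the 41 proteasome genes (rows, colored and ordered by role) on each of the 22 arrays (columns, dogs numbered within the control dogs and within the cAD patients). Most rows are pale, while PSMD4, PSMD8, PSMD9, PSMD10 and PSMG2 run from blue to deep red, and they do so together within a dog in all 3 groups.

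The genes of widest spread rose and fell together with erythroid markers. PSMD9, a chaperone of the ATPase ring, ranged in ctrl from -0.68 (median -0.05) to 1.51, before ASIT from -1.11 (median 1.02) to 1.76 and after ASIT from -0.29 (median 0.96) to 2.12. PSMD10, also known as gankyrin and a chaperone of the same ring, ranged from -0.73 (median -0.21) to 1.21 in ctrl, from -0.32 (median 0.42) to 1.53 before ASIT and from -0.28 (median 0.66) to 1.63 after ASIT. The same dogs stood at most of the ends for both genes. Dog 1 was the highest of the ctrl dogs and dog 2 the lowest, dog 5 was the lowest cAD patient before ASIT, and dog 2 was the highest after ASIT.

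PSMG2, a chaperone of the alpha ring, had ctrl values from -0.85 (median -0.04) to 0.83, values before ASIT from -0.98 (median 0.61) to 1.15 and values after ASIT from -0.64 (median 0.62) to 1.29. PSMD8 ran from -0.67 (median -0.05) to 1.39 in ctrl, from -1.25 (median 0.74) to 0.93 before ASIT and from -1.13 (median 0.81) to 1.24 after ASIT. PSMD4, which binds ubiquitin chains, ran from -0.57 (median 0.03) to 0.84 in ctrl, from -0.78 (median 0.18) to 1.15 before ASIT and from -0.08 (median 0.85) to 1.81 after ASIT. The mean log2 ratio of the 6 erythroid markers ran in turn from -1.30 (median -0.20) to 1.00 in ctrl, from -1.11 (median 0.47) to 1.13 before ASIT and from -0.62 (median 0.64) to 1.25 after ASIT. Its lowest ctrl dog was again dog 2, its highest dog 1, and its highest array of all was that of dog 2 after ASIT.

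The relation was tested over the 15 dogs before any treatment, the 8 ctrl dogs and the 7 cAD patients at 0, with limma across all genes, the erythroid mean as the covariate and the group as a term. A slope is the change of the log2 ratio of a gene per unit of this mean. Over all 29937 genes, 8.34% had a positive slope and 3.25% a negative slope at an adjusted p under 0.05. Among the 41 proteasome genes, 5 had a positive slope and 0 a negative slope by limma at this threshold. They were PSMD9 (slope 1.13, standard error (SE) 0.12, adjusted p = 1.77e-05), PSMG2 (0.81, SE 0.12), PSMD10 (0.75, SE 0.11), PSMD8 (0.87, SE 0.14) and PSMD4 (0.60, SE 0.14, adjusted p = 0.00897), the genes of widest spread. The count of 5 of 41 stood close to the share over all genes.

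Within the proteasome the slopes were split. The other 36 members had slopes from -0.36 to 0.30 with a median of -0.11, against a median of -0.02 over all genes, and 30 of the 41 members lay below 0. Among genes above background in both channels on every array, the median was -0.088 for 40 members and -0.078 for all genes. In ctrl alone 19 of the 41 members lay below 0 (median 0.011, all genes 0.019). Before ASIT alone 28 did (-0.19, all genes -0.03), and after ASIT alone 28 (-0.14, all genes 0.04). All 5 alpha subunits lay between -0.18 and -0.09, and the 7 beta subunits outside the immunoproteasome between -0.18 and 0.04, with none past the threshold. Of the 6 assembly genes, PSMD9, PSMD10 and PSMG2 were called, while PSMG3, the partner of PSMG4, had the lowest slope of all members (-0.36, SE 0.13). Of the 11 non-ATPase subunits of the cap, PSMD4 and PSMD8 were called and PSMD2, a scaffold of the cap, had a slope of -0.24 (SE 0.10). 

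**Figure D2:**
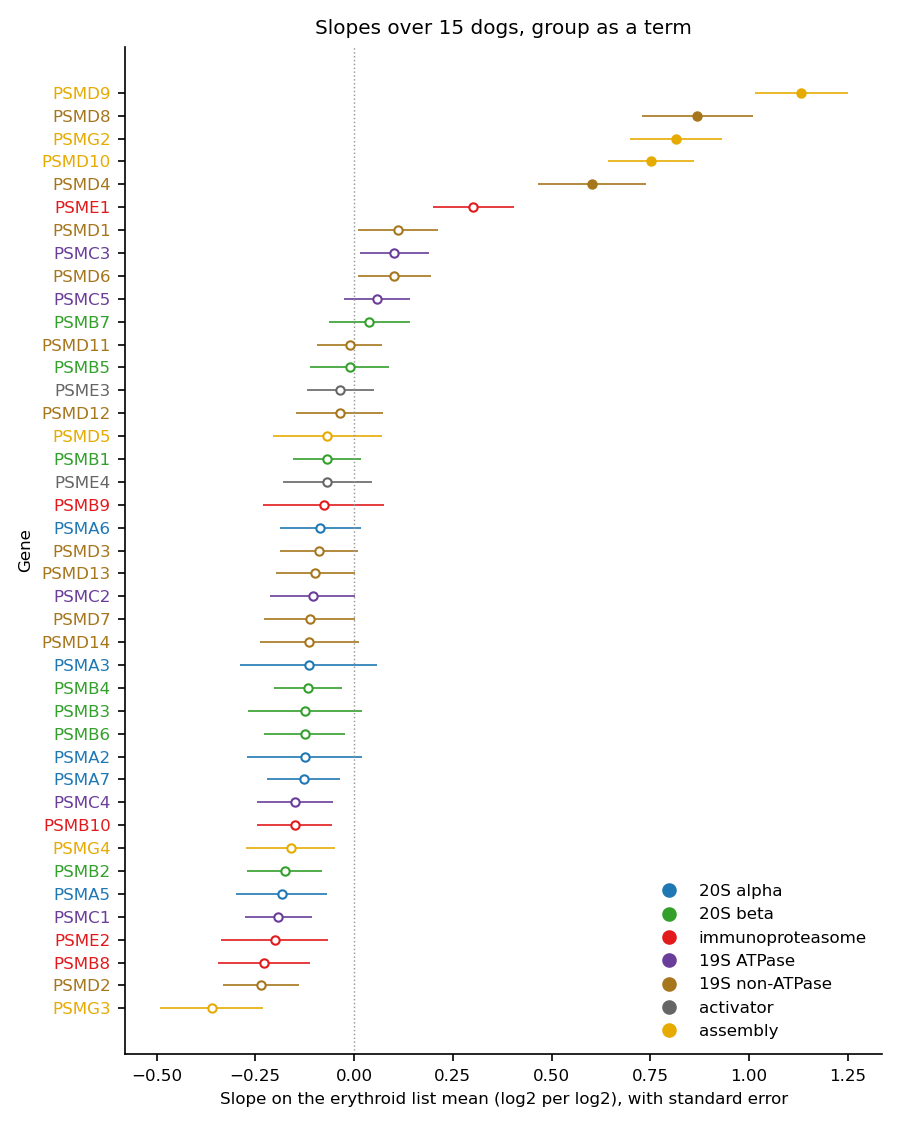
Slope of each of the 41 genes on the mean of the erythroid markers (point, log2 per log2) with its standard error (bar), over 15 dogs with the group as a term. Filled points passed an adjusted p of 0.05. PSMD9, PSMD8, PSMG2, PSMD10 and PSMD4 stand to the right at 0.60 to 1.13, and the 36 others lie between -0.36 and 0.30.

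Correlations over the 15 dogs pooled ctrl and cAD patients with no term for the group, so differences between both groups enter them. Their permutation tests were adjusted over the 41 members. For PSMD9 the erythroid mean gave Pearson's r = 0.95 and Spearman's rho = 0.94 (both permutation p = 1e-05, the smallest that 100000 resamples can give). The adjusted values for this gene were 0.000137 for r and 0.000205 for rho. The value of r was 0.97 within ctrl, 0.95 before ASIT, 0.87 after ASIT and 0.94 without ctrl dog 2 and cAD dog 5 before ASIT, the dogs farthest from the median of the erythroid mean. For PSMD4, the weakest of the called genes, r was 0.80 and rho 0.77 (adjusted permutation p = 0.005 and 0.0118), with 0.75 without those dogs. Without them its slope was 0.62 (adjusted p = 0.096 by limma), while PSMD9, PSMD10, PSMG2 and PSMD8 stayed below 0.05 (4 of 41 members, beside a positive slope in 2.92% and a negative one in 0.615% of all genes). With 7 or 8 dogs, PSMD9 and PSMD10 passed within ctrl alone (positive in 1.68% and negative in 0.334% of all genes), PSMD8, PSMD9, PSMD10 and PSMG2 before ASIT alone (5.01% and 0.808%), and all 5 after ASIT alone (5.77% and 3.07%). No member had a negative slope past the threshold in these fits. In the Cy5 channel alone the slope of PSMD4 was 0.29 (adjusted p = 0.142 by limma), and the other 4 passed (positive in 5.77% and negative in 1.58% of all genes). With normexp and loess all 5 passed (8.72% and 3.86%), as they did over the 15105 genes above background in both channels on every array (15.1% and 8.47%), where PSMG3 had a negative slope (-0.33, SE 0.11, adjusted p = 0.0418).

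Probes of these genes gave like values. The 3 PSMD9 probes, which do not overlap, correlated with the erythroid mean over the 15 dogs by 0.94, 0.84 and 0.97, and both PSMD10 probes, which overlap, by 0.91. The activator subunit PSME1 came next among the members, with a slope of 0.30 (SE 0.10, adjusted p = 0.0643). Its values correlated with the erythroid mean by r = 0.73 and rho = 0.71 over the 15 dogs (adjusted permutation p = 0.018 and 0.0277) and by r = 0.59 without the 2 farthest dogs, and its 2 separate probes by 0.69 and 0.76. The slope passed with normexp background correction and loess in place of the scanner's own (0.30, SE 0.09, adjusted p = 0.0403 by limma), over the genes above background in both channels on every array (0.27, SE 0.09, adjusted p = 0.0337), after ASIT alone (0.53, SE 0.13, adjusted p = 0.0452) and over all 22 arrays (0.36, SE 0.08, adjusted p = 0.00164), in which each cAD patient counts with both arrays. It missed the threshold in ctrl alone (adjusted p = 0.383 by limma), before ASIT alone (0.184), in the Cy5 channel alone (0.215) and without the 2 farthest dogs (0.418). In the opposite direction over all 22 arrays, PSMB2, PSMC1, PSMD2 and PSMG3 passed, 4 of 41 members where 12.9% of all genes had a negative and 14.2% a positive slope. With the dog as a random block over the same arrays PSMC1 (-0.23, SE 0.07, adjusted p = 0.029 by limma) and PSMD2 (-0.22, SE 0.07, adjusted p = 0.0365) passed, and PSMB2 (adjusted p = 0.0667) and PSMG3 (0.0598) did not, where 10.8% of all genes had a negative and 12.9% a positive slope. PSME1 passed in that fit too (0.35, SE 0.08, adjusted p = 0.00304). PSMC1, an ATPase of the ring, had r = -0.71 and rho = -0.68 over the 15 dogs (adjusted permutation p = 0.023 and 0.0389), and its slope there missed the threshold (-0.19, SE 0.09, adjusted p = 0.151). Its 2 probes differed, with correlations of -0.284 and -0.662. Probes of PSMD3 (-0.569 and -0.0033) and the 5 probes of PSME4 (-0.455 to 0.256) also lay apart.

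**Figure D3:**
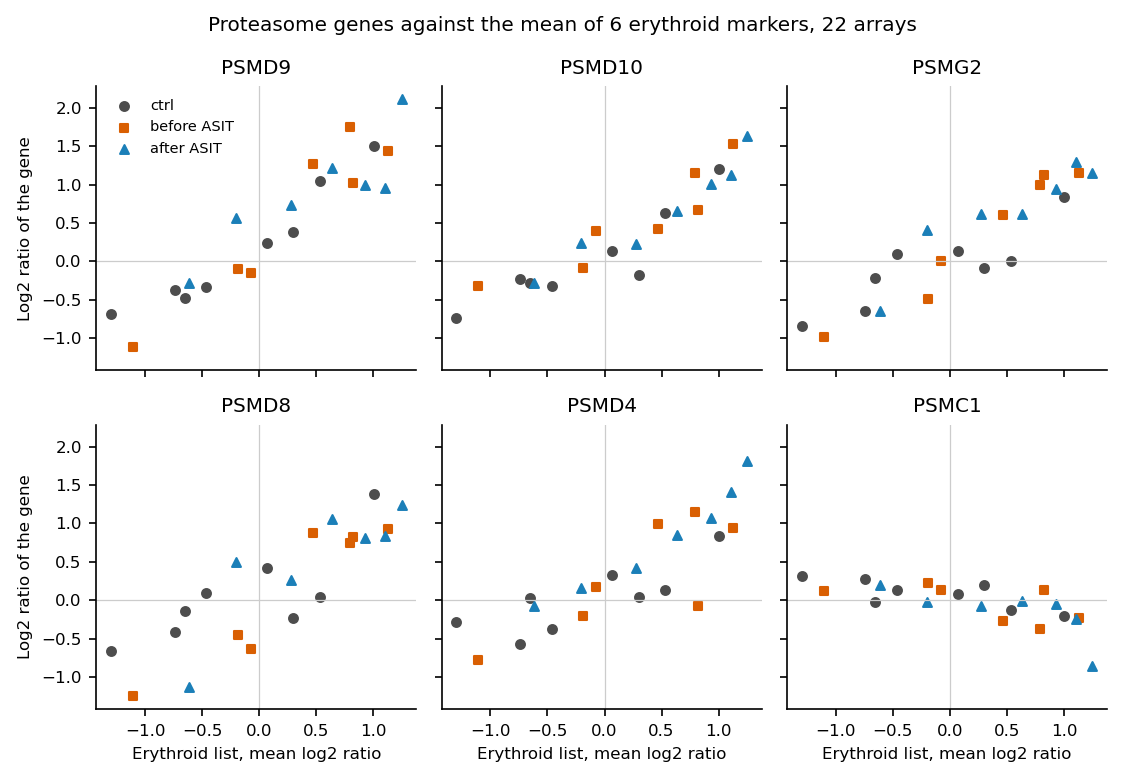
Log2 ratio of 6 proteasome genes (vertical axes) against the mean log2 ratio of 6 erythroid markers (horizontal axes), 1 point per array with ctrl as circles, before ASIT as squares and after ASIT as triangles. PSMD9, PSMD10, PSMG2, PSMD8 and PSMD4 climb along the erythroid mean in each of the 3 groups, while PSMC1 falls slightly.

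The other blood cell lists gave few such relations. The same limma fit with the mean of the neutrophil, T cell, B cell, cytotoxic, eosinophil, platelet or interferon-stimulated list called no member in either direction. Some of these lists were thin, with 2 of 5 eosinophil, 4 of 7 platelet and 5 of 8 cytotoxic genes measured. Of the 7 B cell genes, 4 were above background on all 22 arrays. Of all genes, 0.00668% followed the neutrophil list, 0.0167% the cytotoxic list, 0.00334% the eosinophil list and 0.0267% the interferon-stimulated list, all positively, and 0.0% the T cell, B cell and platelet lists. With the monocyte list, which 0.428% of all genes followed positively and 0.554% negatively, PSMD10 had a negative slope and no other member passed.

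Genes that work beside the proteasome were read from lists of 31 genes of ubiquitin and proteasome supply, of which 26 were measured, and of 10 genes of MHC class I peptide supply, of which 7 were measured. In the first list 5 of 26 genes had a positive slope on the erythroid mean and 0 a negative one, beside 8.34% and 3.25% of all genes. Among them were POMP (0.51, adjusted p = 0.00157), which chaperones the last step of core assembly, the deubiquitinase of the cap USP14 (0.96, adjusted p = 0.000217), the cap-bound thioredoxin TXNL1 (1.14, adjusted p = 6.56e-05) and UFD1L, which delivers substrates with VCP (0.58, adjusted p = 0.000323). In the second list B2M, the light chain of MHC class I (-0.35, adjusted p = 0.0222), and ERAP1, which trims its peptides (-0.45, adjusted p = 0.0366), had negative slopes, and the transcription factor IRF1 had a positive one (0.46, adjusted p = 0.0301).

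No proteasome gene passed the threshold between the groups. In 0 vs. ctrl, 13 of the 29937 genes tested were called by limma at an adjusted p under 0.05 (0.0434%), none of them among the 41 members, whose smallest adjusted p was 0.445. Neither 6 months vs. ctrl nor 0 vs. 6 months had a called gene (0.0% for both), and the smallest adjusted p among the members was 0.574 and 0.874. At an unadjusted p under 0.05, limma gave 0 members in 0 vs. ctrl, where 12.5% of all genes passed (3.93% higher and 8.55% lower). It gave 5 members in 6 months vs. ctrl, 2 higher and 3 lower, where 7.16% of all genes passed (4.27% higher and 2.89% lower). It gave 0 members between both times of the cAD patients, where 6.52% of all genes passed (2.2% higher and 4.32% lower before ASIT). One-way tests followed by Tukey's were also run, as in the methods but with the probe filter used here. Their smallest adjusted p among the members was 0.345, 0.345 and 0.368 in the 3 comparisons. At an unadjusted p under 0.05 Tukey's test gave 0, 3 (PSMB8, PSMB10 and PSME3) and 0 members in the 3 comparisons, where 6.91%, 2.86% and 2.91% of all genes passed. The ranges of each 2 groups overlapped for all 41 members, while 0.261% of all genes had no overlap between ctrl and the cAD patients at 0, 0.124% between ctrl and the patients at 6 months and 0.0134% between both times of the patients.

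The differences were small for nearly all subunits. The median difference of the 41 members was -0.06 for 0 vs. ctrl, -0.08 for 6 months vs. ctrl and 0.04 for 0 vs. 6 months, beside -0.02, -0.03 and -0.02 over all genes tested. In 6 months vs. ctrl all 5 alpha subunits (-0.20 to -0.08) and all 7 beta subunits outside the immunoproteasome (-0.29 to -0.01) had means below ctrl, none past the threshold, and 55.2% of all genes tested were below ctrl. The ATPases lay between -0.24 and 0.08. In the same comparison the 5 largest positive differences were those of the 5 genes whose slope on the erythroid mean passed, and the largest negative ones those of PSMB8, PSMD5 and PSMB10.

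**Figure D4:**
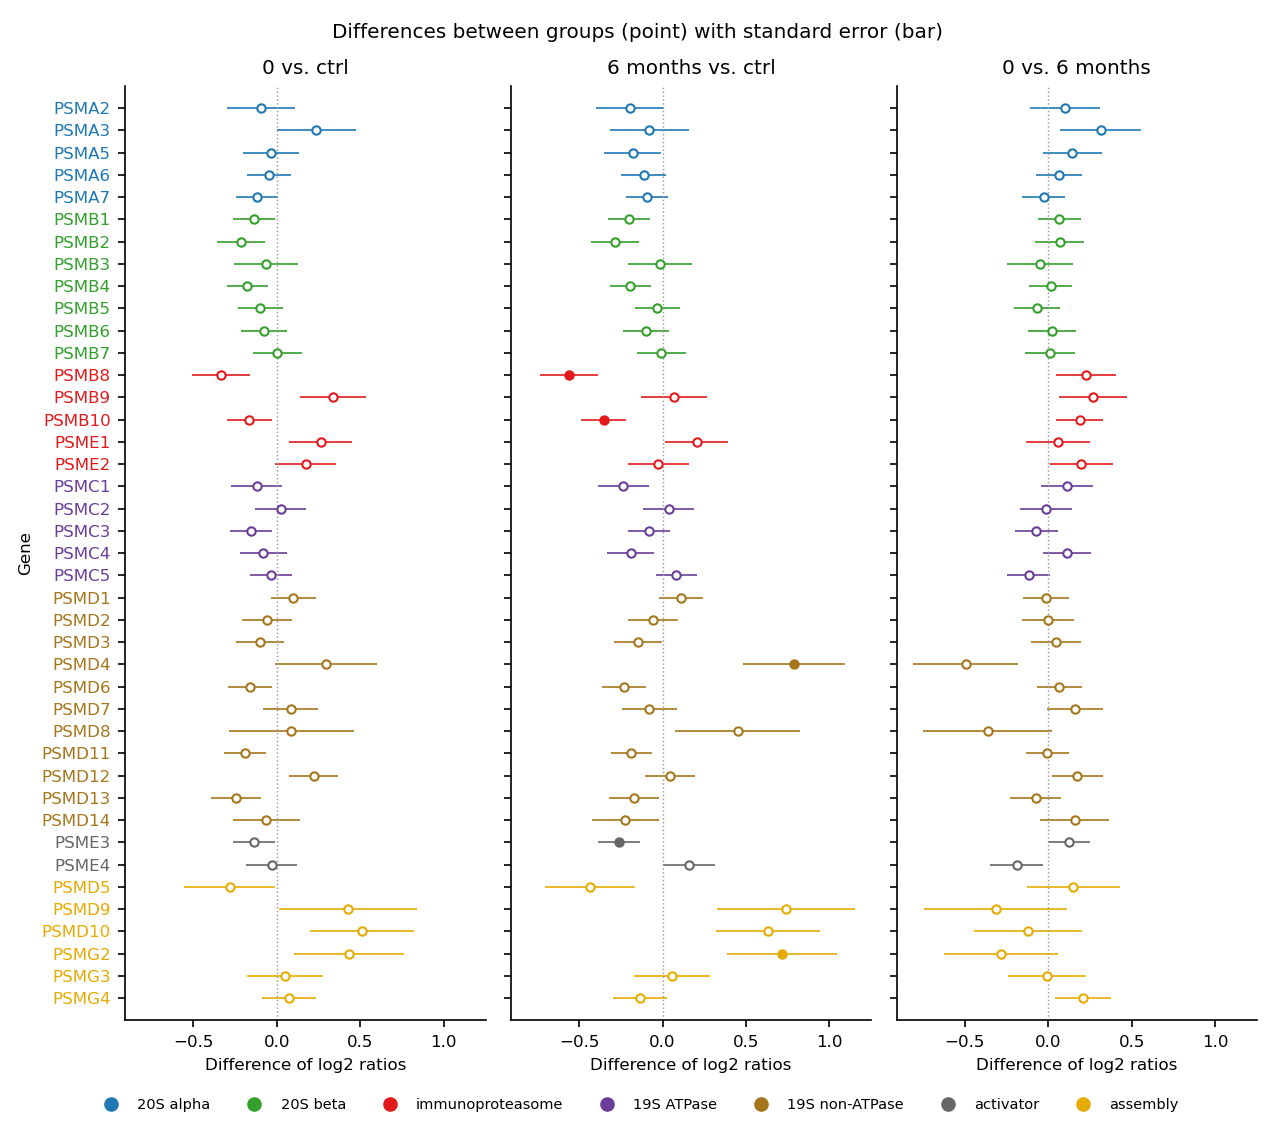
Difference of log2 ratios (point) with standard error from the fit (bar) for the 41 genes in 0 vs. ctrl, 6 months vs. ctrl and 0 vs. 6 months, colored by role. Filled points had an unadjusted p under 0.05, of which there were 0, 5 and 0, and none passed after adjustment over all genes.

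In 0 vs. ctrl the 3 largest positive differences were those of PSMD10 (0.51, SE 0.31, adjusted p = 0.537 by limma), PSMG2 (0.43, SE 0.33) and PSMD9 (0.42, SE 0.41). The mean of the erythroid markers was 0.42 higher in the same comparison (2-sided exact permutation p = 0.303). With this mean as a covariate in the fit of the 3 groups, the differences were 0.18 (SE 0.15) for PSMD10, 0.09 (SE 0.16) for PSMG2 and -0.02 (SE 0.18) for PSMD9. The 3 largest negative differences were those of PSMB8 (-0.33), PSMD5 (-0.28, SE 0.27), a chaperone read by the dim probe, which gave -0.0401 with normexp (and -0.0392 against -0.43 in 6 months vs. ctrl), and PSMD13 (-0.24, SE 0.15), a subunit of the lid of the cap that ran from -0.38 to 0.14 in ctrl and from -0.83 to 0.03 before ASIT. The PSMD13 difference was -0.07 (SE 0.05) with normexp and loess and -0.09 (SE 0.17) from the Cy5 channel alone.

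In 6 months vs. ctrl the largest positive differences were those of PSMD4 (0.79, SE 0.30, adjusted p = 0.682), PSMD9 (0.74, SE 0.41) and PSMG2 (0.72, SE 0.33). PSMD4 had an exact permutation p of 0.0196 and PSMG2 of 0.0357, both 2-sided and unadjusted. The erythroid mean was 0.64 higher after ASIT than in ctrl (exact permutation p = 0.115). With it as a covariate the differences were 0.34 (SE 0.20) for PSMD4, 0.06 (SE 0.19) for PSMD9 and 0.19 (SE 0.16) for PSMG2. From the Cy5 channel alone, the PSMD4 difference was 0.24 (SE 0.21).

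Against ctrl, the immunoproteasome genes differed in sign. PSMB8, its chymotrypsin-like subunit, ranged from -0.45 (median 0.11) to 0.55 in ctrl, from -0.81 (median -0.13) to 0.19 before ASIT and from -0.78 (median -0.57) to 0.05 after ASIT. PSMB10 ranged from -0.36 (median 0.00) to 0.31 in ctrl, from -0.57 (median -0.09) to 0.11 before ASIT and from -0.47 (median -0.41) to -0.07 after ASIT. Both were lowest as a group after ASIT, where 6 of 7 PSMB8 values and all 7 PSMB10 values were below 0, against 3 of 8 and 4 of 8 in ctrl.

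For PSMB8 the difference to ctrl was -0.33 (SE 0.17, adjusted p = 0.445) before ASIT and -0.56 (SE 0.17, adjusted p = 0.574, exact permutation p = 0.0053) after ASIT. For PSMB10 it was -0.16 (SE 0.13) before ASIT and -0.35 (SE 0.13, adjusted p = 0.675, exact permutation p = 0.0081) after ASIT. Neither passed after adjustment over all genes by limma, where 2.89% of all genes were lower at an unadjusted p under 0.05. In the Cy5 channel alone PSMB8 was 0.01 (SE 0.20) in 0 vs. ctrl and -0.40 (SE 0.20) in 6 months vs. ctrl. Over the 15 dogs PSMB8 went against the erythroid mean by r = -0.57 and rho = -0.59 (adjusted permutation p = 0.104 and 0.0782). PSMB10 did by r = -0.54 and rho = -0.56 (0.119 and 0.0922). With that mean as a covariate both had an unadjusted p under 0.05 by limma in 6 months vs. ctrl, where the smallest adjusted p among the members was 0.477. PSMB8 and PSMB10 followed each other over the 15 dogs before any treatment (r = 0.82 and rho = 0.89, permutation p = 0.00017 and 3e-05, adjusted over the 10 pairs of the 5 genes 0.0017 and 0.0003). The correlations of pairs over the 15 dogs also have no term for the group. Within ctrl, before ASIT and after ASIT r was 0.79, 0.80 and 0.85, and it was 0.83 without the 2 dogs farthest from the median of PSMB8.

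PSMB9, whose gene neighbors that of PSMB8, ranged from -0.90 (median -0.31) to 0.28 in ctrl, from -0.76 (median 0.10) to 0.46 before ASIT and from -0.70 (median -0.20) to 0.07 after ASIT. Its difference to ctrl was 0.34 (SE 0.20, adjusted p = 0.517) before ASIT and 0.07 (SE 0.20) after ASIT, and its correlation with PSMB8 over the 15 dogs was 0.21 (rho 0.23, permutation p = 0.443 and 0.406, adjusted 0.633 and 0.688), with 0.40 in ctrl, 0.58 before ASIT and 0.21 after ASIT. With PSMB10 it was 0.33 over the 15 dogs (rho 0.28, permutation p = 0.232 and 0.318, adjusted 0.633 and 0.688), with 0.29, 0.87 and 0.56 in the same groups. The value of PSMB8 minus PSMB9 ran from -0.21 to 1.03 in ctrl and from -0.76 to 0.16 before ASIT, an overlap between the groups. PSMB9 also went with PSME2 (r = 0.65, rho = 0.68, adjusted permutation p = 0.0432 and 0.0325), by 0.32 within ctrl, 0.89 before ASIT and 0.83 after ASIT. It was 0.57 without the dogs farthest from the median of PSMB9.

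The activator subunits PSME1 and PSME2 form 1 ring on the core, and their genes are neighbors on chromosome 8. PSME1 ranged from -0.34 (median 0.09) to 0.64 in ctrl, from -0.21 (median 0.33) to 0.71 before ASIT and from -0.27 (median 0.41) to 0.82 after ASIT. PSME2 ranged from -0.77 (median -0.18) to 0.10 in ctrl, from -0.88 (median -0.12) to 0.59 before ASIT and from -0.64 (median -0.21) to -0.14 after ASIT. Across dogs they were not parallel. In the cAD patients the dog with the highest PSME1, dog 2, had the lowest PSME2 both before and after ASIT, and the correlation over the 15 dogs was -0.25 (rho -0.20, permutation p = 0.378 and 0.48, adjusted 0.633 and 0.688), with 0.30 in ctrl, -0.88 before ASIT and -0.72 after ASIT. PSME1 was 0.26 (SE 0.19) above ctrl before ASIT and 0.20 (SE 0.19) after ASIT, and with the erythroid mean as a covariate 0.11 and -0.03. In the Cy5 channel alone PSME1 was called in 0 vs. ctrl (0.52, SE 0.16, adjusted p = 0.0277), the only member called there, where 23.2% of all genes were called.

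None of the 3 constitutive catalytic subunits passed the threshold. PSMB5 ranged from -0.14 (median -0.03) to 0.14 in ctrl, from -0.63 (median -0.06) to 0.37 before ASIT and from -0.40 (median 0.04) to 0.15 after ASIT. PSMB6 and PSMB7 differed from ctrl by -0.08 and 0.00 before ASIT and by -0.10 and -0.01 after ASIT, with standard errors of 0.14 and 0.15. From the Cy5 channel alone, PSMB6 differed from ctrl by -0.22 before ASIT (SE 0.15, adjusted p = 0.294 by limma) and by -0.39 after ASIT (SE 0.15, adjusted p = 0.0717). The exchange of subunits was described, with no test, by the difference of each pair. PSMB8 minus PSMB5 averaged 0.09 in the 8 ctrl dogs (SD 0.30), -0.14 in the 7 cAD patients at 0 (SD 0.47) and -0.44 at 6 months (SD 0.19). PSMB10 minus PSMB7 had means of -0.01, -0.18 and -0.35 in the same order, while PSMB9 minus PSMB6 had -0.43, -0.02 and -0.26. By group means the first and the second pair thus ran down from ctrl over 0 to 6 months and the last did not. From 0 to 6 months PSMB8 minus PSMB5 rose in dogs 1 (-0.22 to -0.10) and 2 (-0.97 to -0.67). It fell in dog 3 (-0.06 to -0.45). Both arrays of each of these dogs shared a slide. The value fell in dogs 4 to 7, whose arrays lay on different slides at both times. The ctrl arrays lay on slides of their own.

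**Figure D5:**
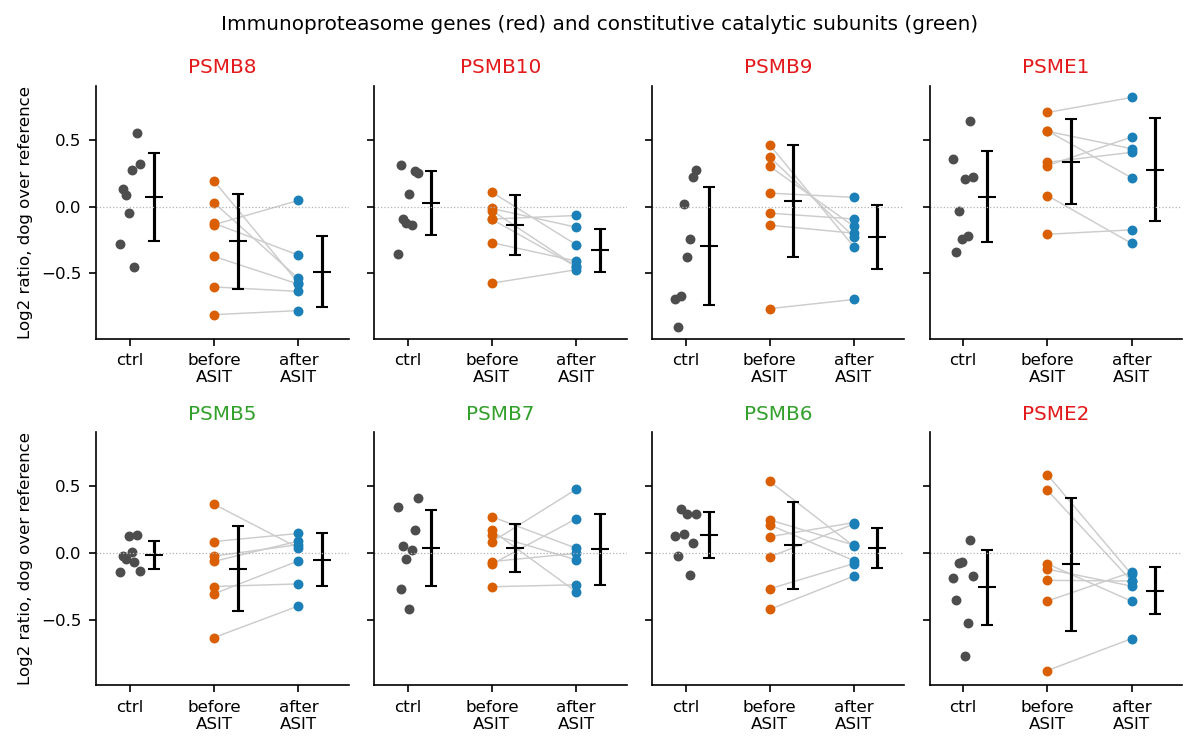
Log2 ratio per array of the 5 immunoproteasome genes (red titles) and the 3 constitutive catalytic subunits (green titles) in ctrl, before ASIT and after ASIT, with mean and SD beside the points and gray lines joining both arrays of a cAD patient. PSMB8 and PSMB10 have their lowest group mean after ASIT (-0.49 and -0.33), while PSMB9 has its lowest in ctrl (-0.30) and the 3 constitutive subunits have group means between -0.12 and 0.14.

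The mean of the 5 immunoproteasome genes minus the mean of the other 36 members was computed per array and is given as a description. It ran from -0.34 (median -0.05) to 0.40 in ctrl, from -0.25 (median -0.01) to 0.24 before ASIT and from -0.30 (median -0.16) to -0.05 after ASIT. Values below 0 occurred on 5 of 8 arrays in ctrl, on 4 of 7 at 0 and on all 7 at 6 months, and higher before than after ASIT in 6 of 7 dogs. The group means differed by 0.06 between 0 and ctrl, by -0.13 between 6 months and ctrl and by 0.19 between 0 and 6 months. Without ctrl dog 7 the first was 0.12 and the second -0.0692. With PSMD4, PSMD8, PSMD9, PSMD10 and PSMG2 left out of the rest they were 0.12, -0.0227 and 0.14, and within dogs 1 to 3 the last was 0.056. The highest value was that of ctrl dog 7, whose interferon-stimulated list had a mean of 1.62, against -0.45 to -0.05 in the other ctrl dogs, and which was also the highest ctrl dog for PSMB8 (0.55), PSME1 (0.64) and PSME2 (0.10). Without this dog PSMB8 was -0.49 (SE 0.17) in 6 months vs. ctrl and PSMB10 -0.32 (SE 0.14).

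Within the cAD patients no subunit changed over 6 months of ASIT past the threshold. All 5 immunoproteasome genes had higher means before than after, by 0.06 (PSME1) to 0.27 (PSMB9). PSMB9 was higher before ASIT in 6 of 7 dogs (exact sign-flip permutation p = 0.0781), PSMB8 in 5 (0.109) and PSMB10 in 5 (0.0625), where 0.0156 is the smallest value the test allows. In the same dogs the means of the T cell (0.22), B cell (0.25) and cytotoxic (0.33) lists were also higher before. Their exact sign-flip permutation p was 0.125, 0.0938 and 0.25. The neutrophil (-0.05), monocyte (-0.09) and platelet (-0.26) lists were lower before. The part of these lists in the differences was not tested. For dogs 1 to 3, whose arrays of both times shared a slide, the differences were 0.03 for PSMB8, 0.01 for PSMB9, 0.00 for PSMB10, 0.01 for PSME1 and -0.15 for PSME2. The arrays of dogs 4 to 7 lay on different slides at both times. The largest positive difference (higher before) was that of the alpha subunit PSMA3 (0.31, SE 0.24, higher before in 4 of 7 dogs), whose 2 overlapping probes gave 0.33 and 0.30. The largest negative differences (lower before) were those of PSMD4 (-0.50, SE 0.31, lower before in 5 of 7 dogs, exact sign-flip permutation p = 0.0625), PSMD8 (-0.36, SE 0.39) and PSMD9 (-0.32, SE 0.43). The erythroid mean was 0.22 lower before than after in the same dogs (lower in 4 of 7, exact sign-flip permutation p = 0.406). With it as a covariate these differences were -0.34 (SE 0.19) for PSMD4, -0.17 (SE 0.21) for PSMD8 and -0.08 (SE 0.18) for PSMD9. In dogs 1 to 3 alone they were -0.34 (SE 0.24), -0.037 (SE 0.27) and -0.010 (SE 0.21), and that of PSMA3 was -0.12 (SE 0.18).

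Other genes of the pathway did not pass between the groups. Of the 26 measured genes of ubiquitin and proteasome supply and the 7 of MHC class I peptide supply, limma called 0 in each comparison. At an unadjusted p under 0.05, 1 of the 33 passed in 0 vs. ctrl, where 8.55% of all genes were lower, and 1 higher and 2 lower in 6 months vs. ctrl, where 4.27% and 2.89% were. VCP, the segregase that feeds the proteasome, was lower in 0 vs. ctrl (-0.34, SE 0.14). In 6 months vs. ctrl POMP was higher (0.49, SE 0.21), while SHFM1, the smallest subunit of the lid (-0.87, SE 0.39), and the ubiquitin-activating enzyme UBA6 (-0.41, SE 0.15) were lower. PSME3, which forms the activator ring of the nucleus and is named here after its values were seen, was lower in that comparison as well (-0.26, SE 0.12, adjusted p = 0.682) and was the only member called there in the Cy5 channel alone, where 16.8% of all genes were called. The medians of both lists in the 3 comparisons lay between -0.13 and 0.08.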

How the data were processed

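RNA from 22 blood samples was hybridized to Agilent canine arrays with 2 colors and no dye swap. The authors deposited Feature Extraction output (version 10.7.3.1 per the labels, 10.10.1.1 per the file headers) with background-subtracted, Lowess-normalized intensities and a log10 ratio of dog over pool per spot. They also deposited a series matrix of log10 ratios, whose ctrl columns correlated with the scanner output by 0.711 to 0.844 and whose other columns equaled it at every spot (largest difference 0.0). The log10 ratios of the scanner output were converted to log2 here. Control spots and 208 outlier spots were left out, spots were averaged per probe and 38287 probes, those bright in Cy5 (well above background) on 7 or more arrays, were averaged per gene name, which gave 29937 genes. The number of arrays limits the precision. The 3 groups entered 1 limma 3.58.1 fit (R 4.3.3) without a block, with Benjamini-Hochberg adjustment over all genes. Exact and sign-flip permutation tests used Python 3.11.15. P-values measure the spread between arrays. In the fit of the 3 groups each cAD patient counts with both arrays, as if they were independent.

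The 8 genes of the immunoproteasome and the constitutive catalytic subunits are always named, and per comparison the members with the 3 largest positive and negative differences. The members, the marker and pathway lists and the tests were chosen with earlier results of these data known. All 43 symbols are in the RefSeq table of assembly UU_Cfam_GSD_1.0, whose coordinates were not used since the build differs. Promoters were not analyzed here. The erythroid covariate, its slopes and the run without ctrl dog 7 were added after seeing the data. The alternatives were normexp (offset 50) with loess, the series matrix, the ratio of processed signals, Cy5 alone, no filter, a strict filter, single probes, the methods' one-way and Tukey test, slide blocks, and the dog as a block. For Cy5 alone, the Cy5 intensities, already Lowess-normalized with the Cy3 channel, were quantile-normalized between arrays. These values are therefore not free of the reference. By the health condition in the labels, the 2 arrays of each cAD patient come from the same animal. The titles of the arrays after ASIT instead all carry the same patient number, with a running therapy number. The pairing used here rests on the health condition. The deviations of paired arrays from the group means correlated by -0.043 to 0.556. The fits were tested on simulated data. A few genes and sequences are not reported here.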

Additional observations from a re-analysis of the deposited data

Results flagged for a closer look

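Among 78 groups of values checked, 5 held a dog far from the others, where chance gives about 1 in 20. After ASIT, dog 4 was the highest for PSMA3 (0.50, next -0.15) and the lowest for PSMD8 (-1.13, next 0.26). Ctrl dog 1 was the highest of its group for PSMD5 (0.58, next 0.22), and the erythroid mean was highest in the same ctrl dog (1.00). In the marker lists, the cytotoxic mean of cAD dog 3 before ASIT was 0.86 (next -0.19), and the interferon-stimulated mean of ctrl dog 7 was 1.62 (next -0.05). The part of these values in the results was not tested, beyond the run without ctrl dog 7.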

How the results depend on the processing

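Of 35 counts of called members over the alternatives, 33 stayed at 0 and the Cy5 channel alone gave 1.0 in 0 vs. ctrl (PSME1) and 1.0 in 6 months vs. ctrl (PSME3). Of the values of named genes, 417 kept direction and side of the threshold, 1 newly passed (PSME1, Cy5 alone) and 28 changed sign, most of them from small differences. With Cy5 alone these were PSMB8 (0.011) and PSMB5 (0.14) in 0 vs. ctrl, PSMB9 (-0.024) and PSMB5 (0.073) in 6 months vs. ctrl and PSMB5 (0.069) in 0 vs. 6 months. With normexp they were PSMB9 (-0.0195), PSMB5 (0.0565) and PSMB7 (0.058) in 6 months vs. ctrl and PSMB7 (-0.0295) in 0 vs. 6 months. With the slide as a random block PSMB7 was -0.022, 0.0175 and -0.039 in the 3 comparisons. With the slide as a fixed block, 0 vs. 6 months gave -0.054 for PSME1, 0.027 for PSMB5, -0.0905 for PSMB6 and -0.20 for PSMB7. Dogs 1 to 3 alone gave -0.15 for PSME2, 0.038 for PSMB5, -0.18 for PSMB6, -0.26 for PSMB7 and -0.12 for PSMA3. One probe of PSME2 gave 0.0072 in 6 months vs. ctrl. With the erythroid covariate, chosen after seeing the data, PSMB7 (-0.011) and PSMD9 (-0.024) turned in 0 vs. ctrl, and PSME1 (-0.0295) and PSME2 (0.097) in 6 months vs. ctrl. Without ctrl dog 7, also chosen after seeing the data, PSME2 was 0.025 and PSMB7 0.0115 in that comparison. The causes were not tested. The immunoproteasome value minus the rest kept its sign under all 27 settings run and moved by less than 1 SD of the arrays, but by over 1.5 times its size under some. It ran from 0.026 (normexp) to 0.121 (without ctrl dog 7) in 0 vs. ctrl, from -0.156 (normexp) to -0.0227 (rest without 5 genes) in 6 months vs. ctrl, where the median of the rest gave -0.0577, and from 0.056 (dogs 1 to 3) to 0.191 in 0 vs. 6 months. Of 45 slopes on the erythroid mean under other settings, 6 lost the threshold, 4 of them of PSMD4, and 1 each of PSMD8 and PSMG2 in ctrl alone. Calls were gained by PSME1 (normexp, strict filter, after ASIT, all 22 arrays) and, with a negative slope, by PSMG3 (strict filter, adjusted p = 0.0418 by limma) and 4 members over all 22 arrays, of which 2 (PSMC1 and PSMD2) passed with the dog as a random block, a fit added after seeing the data.

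With the dog as a block, the pairing of both arrays of each cAD patient left 0 members called in 0 vs. 6 months by limma and 1 (PSMD4) at an unadjusted p under 0.05, where 6.78% of all genes passed. It was not run for the comparisons with ctrl. Signal over background limits PSMD5, PSMA8 and PSMB11.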
